A study of Mus musculus with 10 samples.

Results

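The Wnt pathway genes outside the frizzled receptors were followed through RNA bound to 4E-T in the embryonic mouse cortex. They were chosen by a rule on gene symbols, set with earlier results of these data known. It covers Wnt and R-spondin ligands, Porcn and Wls, the Lrp and Lgr receptors, and Dkk and Sfrp inhibitors. It also covers Dvl, Axin, Apc, Gsk3 and Ctnnb1, the feedback genes Nkd1, Nkd2, Znrf3 and Rnf43, and the Tcf and Lef factors. Of 55 symbols that the rule can match, 53 were measured, among 22180 genes in all. The probe set of Gsk3a also names another gene and Tcf7 had no single-symbol probe set, so these 2 were not analysed here. Each gene is represented by its single-symbol probe set with the highest mean over the arrays.

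The tissue was E12-13 cortex of the CD1 strain, and the labels name no genetic change and no drug. Affymetrix Mouse Gene 2.0 ST arrays carried RNA bound to 4E-T and recovered by immunoprecipitation (3 arrays, numbered 1 to 3), RNA recovered with IgG (3 arrays, numbered 2 to 4) and total RNA as input (4 arrays, numbered 1 to 4). The study calls the replicates biological and counts 3 of each kind, while 4 inputs are labelled. Whether embryos were pooled is not given in the sources used here.

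In the canonical Wnt pathway a secreted ligand joins a frizzled receptor to the co-receptors Lrp5 and Lrp6. This stops the destruction complex of Axin, Apc and Gsk3 from degrading beta-catenin, which then acts with Tcf and Lef factors on target genes, among them the pathway's own inhibitor Axin2. In the embryonic cortex Wnt signals come from the cortical hem and from the cortical wall itself, and they are known to act on precursor proliferation and on neurogenesis. 4E-T is a partner of eIF4E, the protein that binds the mRNA cap, and it acts as a translational repressor in P-bodies. The comparison with IgG asks which RNAs are relatively more abundant with 4E-T than with a control antibody.

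Values are log2 intensities after RMA (robust multi-array average). They are relative levels, and the amount of RNA recovered was not compared. In bulk tissue, fewer cells of a type and less RNA per cell cannot be told apart. Input 1 and 4E-T 1 stood apart: their medians over all probe sets were 3.54 and 3.52, against 4.33 to 4.54 on the other 8 arrays. The 2 arrays held equal values at 7.52% of probe sets, and no other pair of arrays did so at more than 0.138%. The fit therefore carried a term for these 2 arrays (the set term) beside group, and no IgG array is among them. A gene was called at a limma adjusted p under 0.05 over all genes. Differences are on the log2 scale with standard errors of the fit (n = 3 for 4E-T, 3 for IgG and 4 for input). Leaving out either array of the lower set gives the fit of the other 8 arrays, since the set term then takes up the array that is left. Counts of alternative settings below therefore include this fit more than once. The mean of probe sets leaves the difference of a gene with 1 probe set as it was. Leaving out an IgG array does the same for differences of 4E-T from input.

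A total of 34 of the 53 genes had a mean over the 10 arrays above 4.40, the 95th percentile of 1105 olfactory receptor genes. This level serves as a mark for dim probe sets, and 55.4% of all genes lay above it. The bright members were 11 of 23 ligands, 2 of 2 secretion genes, 3 of 5 receptors, 4 of 8 inhibitors, 6 of 6 transduction genes, 4 of 5 feedback genes and 4 of 4 transcription genes. The dim ligands included Wnt1, Wnt3 and Wnt3a.

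In 4E-T over IgG, limma called 5 of the 53 genes (9.43%), against 10.5% of all genes. Axin2, Wnt7a, Lgr4 and Sfrp1 were higher and Dvl3 was lower, while 7.57% of all genes were higher and 2.92% lower. The median difference was 0.09 over the members and 0.03 over all genes. The share of members called was thus near that of the whole table. With group as the sole term, 1 member was called (Axin2), against 1.35% of all genes. Without 4E-T 2 the count was 3 (Axin2, Lgr4 and Wnt7a), against 4.19% of all genes.

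Axin2, the feedback inhibitor that rebuilds the destruction complex, had the largest difference of the members. It measured 8.03, 7.47 and 7.33 with 4E-T, against 6.56, 6.17 and 6.01 with IgG and 6.07, 6.35, 6.12 and 6.19 in input. All 4E-T arrays lay above all the others, and the IgG arrays overlapped input. The difference was 1.29 ± 0.20 over IgG (2.44-fold, adjusted p = 0.00270), which placed the gene 182nd of 22180 from the highest. It was 1.41 ± 0.18 over input (2.66-fold, adjusted p = 3.10e-04). IgG over input gave 0.12 ± 0.19 (adjusted p = 0.744).

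A second, dimmer probe set for Axin2 did not show the same difference from IgG. It measured 7.38, 6.30 and 6.28 with 4E-T, against 6.39, 6.22 and 6.31 with IgG and 6.06, 5.92, 5.99 and 5.75 in input. Its 4E-T 2 and 4E-T 3 values lay among those of IgG. The difference was 0.15 ± 0.19 over IgG (adjusted p = 0.726) and 0.67 ± 0.17 over input (adjusted p = 0.0164). With the mean of both probe sets, Axin2 was higher than with IgG by 0.72 (adjusted p = 0.0331). The call over IgG held under all 18 alternative settings, with 0.72 as the smallest difference.

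An annotated transcript start is shown for each of Axin2, Wnt7a and Lgr4, because these members were called higher with 4E-T over both IgG and input. Starts were chosen because eIF4E binds the cap there. That of Axin2 lies inside the gene, downstream of the gene's annotated start at chr11:108917828. Each line gives, 5′ to 3′, 60 bases before the start in lower case and the first 30 transcribed bases, at the cap, in capitals (RefSeq, GRCm38.p6).
Axin2, chr11:108920289-108920378, + strand: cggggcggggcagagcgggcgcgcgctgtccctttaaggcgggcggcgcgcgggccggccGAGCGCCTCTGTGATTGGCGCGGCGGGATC
Wnt7a, chr6:91411324-91411413, - strand: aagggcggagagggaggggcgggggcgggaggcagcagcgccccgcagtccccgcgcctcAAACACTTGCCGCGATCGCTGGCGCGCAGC
Lgr4, chr2:109917587-109917676, + strand: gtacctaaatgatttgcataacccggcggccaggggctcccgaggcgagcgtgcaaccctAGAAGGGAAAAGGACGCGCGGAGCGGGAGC
None of the 3 transcripts begins with a C followed by 4 pyrimidines, the start of a terminal oligopyrimidine tract, which 2.51% of all 32851 annotated starts have. Of the 45 starts of the 36 members in the table, 0 have it. The core letters of a Tcf/Lef site, CTTTG on either strand, occur in 20 of these 45 start windows of 300 bases (44.4%) and in 53.9% of all such windows. They occur in none of the windows of Axin2, Wnt7a and Lgr4, and in the 4 windows of Lef1. These letters describe the windows and say nothing of whether a factor binds there.

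**Figure D1:**
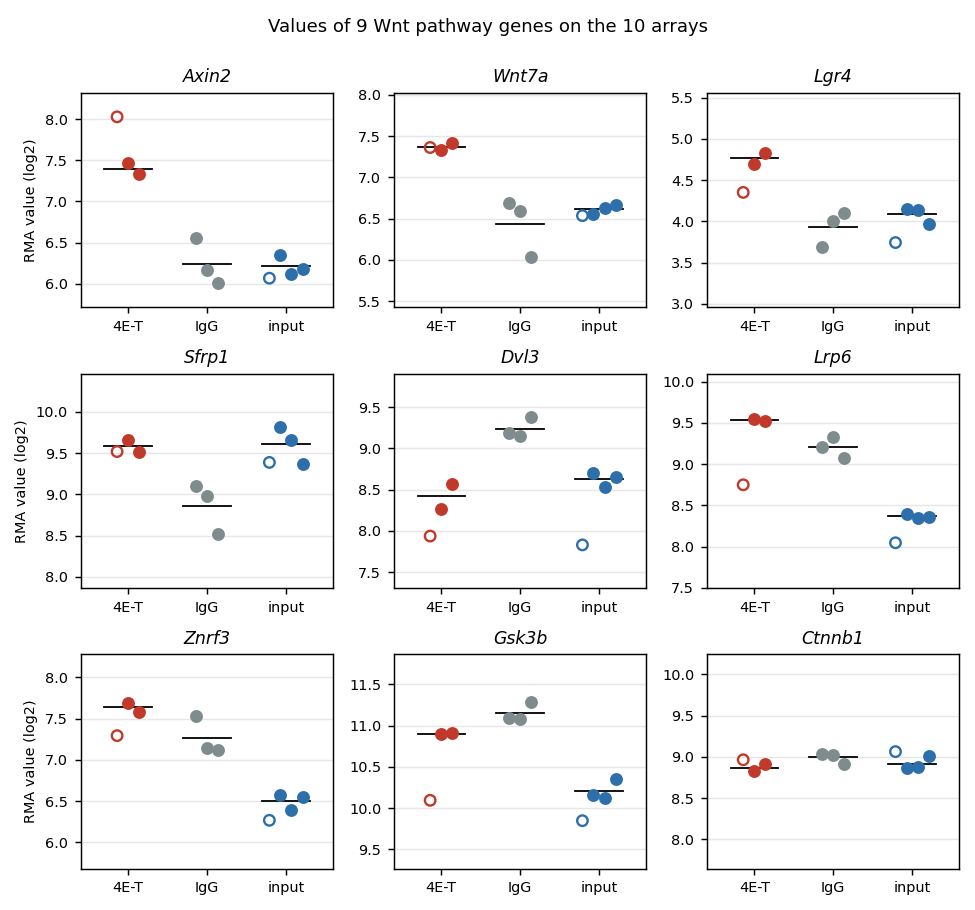
Log2 RMA values (y axis) of 9 Wnt pathway genes in the 4E-T, IgG and input groups (x axis); each point is 1 array, open points are 4E-T 1 and input 1, and bars are means of the other arrays. Axin2, Wnt7a and Lgr4 were higher with 4E-T than in both other groups, whereas Lrp6, Znrf3 and Gsk3b were higher in both precipitates than in input, apart from 4E-T 1 for Gsk3b, and Ctnnb1 stayed between 8.82 and 9.06 on all 10 arrays.

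Among the 23 ligands, 1 (4.35%) was called over IgG, against 10.5% of all genes, and their median difference was 0.08. The called ligand was higher. Wnt7a, a ligand made by cortical precursors, measured 7.36, 7.33 and 7.41 with 4E-T, against 6.69, 6.59 and 6.04 with IgG and 6.54, 6.55, 6.64 and 6.66 in input. The 4E-T arrays lay close together and above all other arrays. Wnt7a was higher than with IgG by 0.94 ± 0.18 (1.92-fold, adjusted p = 0.00693) and higher than in input by 0.78 ± 0.16 (1.71-fold, adjusted p = 0.00472). The call over IgG was lost with group as the sole term (adjusted p = 0.0670), and that over input with median centring (adjusted p = 0.0518).

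Wnt7b, its close relative, showed more spread. It measured 4.98, 5.87 and 6.13 with 4E-T, against 4.70, 5.17 and 5.73 with IgG and 4.74, 5.94, 5.45 and 6.28 in input. The groups overlapped, and the difference from IgG was 0.82 ± 0.27 (adjusted p = 0.0799), with a 95% interval of 0.23 to 1.42. Against input the 4E-T difference was 0.15 ± 0.24 and that of IgG -0.67 ± 0.25 (adjusted p = 0.783 and 0.0939). Without IgG 4, Wnt7b was called higher with 4E-T than with IgG (1.09, adjusted p = 0.0204) and lower with IgG than in input (-0.94, adjusted p = 0.0184). With the replicate number as a block it was called higher with 4E-T than with IgG (1.01, adjusted p = 0.0113) and lower with IgG than in input (-0.70, adjusted p = 0.0207). The filter on dim genes also gave a call of 4E-T over IgG (adjusted p = 0.0497).

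Against input, Rspo2 and Wnt5a were also higher with 4E-T and Rspo1 was lower, so that 3 of 23 ligands were higher and 1 lower, against 10.4% of all genes higher and 8.86% lower. For these the calls depended on single arrays. Wnt5a, a mostly non-canonical ligand with a dim probe set, measured 4.22, 4.34 and 4.29 with 4E-T, against 4.15, 3.43 and 4.13 with IgG and 3.34, 3.64, 3.40 and 4.15 in input. All 4E-T arrays lay above the others, and the difference from input was 0.67 ± 0.21 (adjusted p = 0.0459). It was called in 7 of 17 alternatives and lost without any one of 4E-T 1, 4E-T 2, 4E-T 3, input 1, input 2 or input 3 (adjusted p up to 0.191).

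The R-spondins, secreted proteins that stabilise Wnt receptors through Lgr4 to Lgr6, had calls in both directions against input. Rspo1 measured 5.75, 5.91 and 5.93 with 4E-T and 6.21, 5.81 and 5.77 with IgG, against 6.92, 6.42, 6.32 and 6.37 in input. Both precipitates lay below all input arrays. The difference from input was -0.66 ± 0.17 for 4E-T (adjusted p = 0.0145) and -0.52 ± 0.17 for IgG (adjusted p = 0.0595). The 4E-T value was -0.45 in the 8 arrays outside the lower set, which leave out input 1, the highest input array, and was not called there (adjusted p = 0.102).

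Rspo2 measured 5.42, 5.33 and 4.99 with 4E-T and 4.97, 4.95 and 4.84 with IgG, against 4.68, 4.65, 4.67 and 5.01 in input. The 4E-T arrays lay above those of IgG and overlapped input 4. It was higher than in input by 0.49 ± 0.15 (adjusted p = 0.0377), a call held in 9 of 18 alternatives and lost without 4E-T 1, 4E-T 2, input 1, input 2 or input 3 (adjusted p up to 0.186). Rspo3 was not called in 4E-T over IgG or over input (0.43 ± 0.48 and 0.37 ± 0.43). With the replicate number as a block it was called higher with 4E-T than with IgG (0.84, adjusted p = 0.0125) and than in input (0.73, adjusted p = 0.00696).

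The other ligands had differences from IgG between -0.39 (Wnt8a) and 0.31 (Rspo2), apart from Wnt5a (0.46), Rspo3 (0.43), Wnt7a and Wnt7b. No ligand was called in IgG over input, against 16.6% of all genes. There an unadjusted p under 0.05 was found for 4 of the 23 ligands and for 6235 of all 22180 genes.

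The 2 genes of ligand secretion were not called in 4E-T over IgG. Wls, the carrier that brings Wnt proteins to the cell surface, measured 5.73, 6.31 and 6.12 with 4E-T, against 6.23, 6.04 and 5.53 with IgG and 6.07, 5.80, 5.60 and 5.67 in input. All groups overlapped, and the difference from IgG was 0.13 ± 0.23 (95% interval -0.37 to 0.63). Porcn, the acyltransferase that lipidates Wnt proteins, measured 5.86, 6.29 and 6.35 with 4E-T and 6.18, 6.11 and 6.59 with IgG, against 6.28, 6.57, 6.88 and 7.08 in input. It was lower with IgG than in input by 0.54 ± 0.17 on the log2 scale (difference -0.54, adjusted p = 0.0473). The 4E-T difference from input was -0.49 ± 0.16 (adjusted p = 0.0542), and that from IgG was 0.05 ± 0.18 (adjusted p = 0.920). The IgG call held in 6 of 18 alternatives, and of the fits without 1 array it held in those without IgG 4 or input 2 (adjusted p up to 0.150 in the others).

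**Figure D2:**
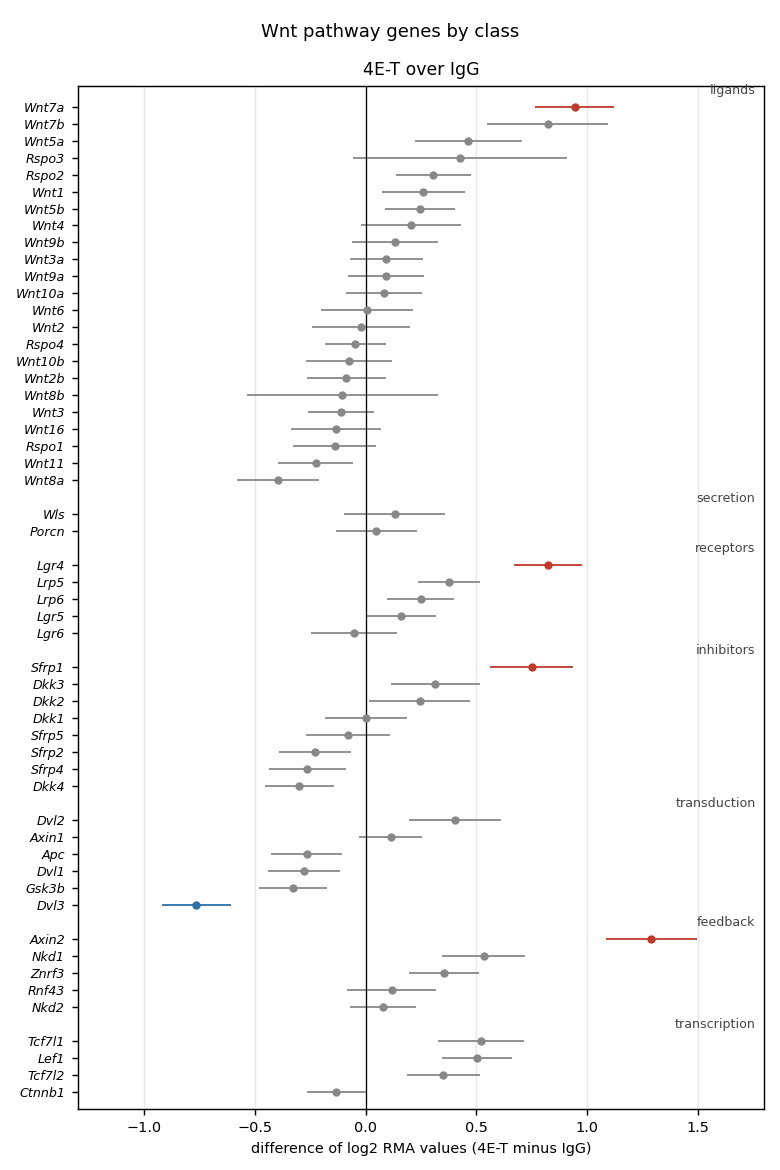
Difference of log2 RMA values, 4E-T minus IgG (x axis), for the 53 genes by class (y axis); points are estimates of the fit, bars are standard errors, and red and blue points are genes called higher and lower. Axin2, Wnt7a, Lgr4 and Sfrp1 were called higher and Dvl3 lower, and the other genes are grey.

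Most receptors were called in 4E-T over input, and 1 of 5 in IgG over input. Of 5, Lgr4, Lrp5 and Lrp6 were higher with 4E-T than in input and 0 lower, against 10.4% of all genes higher and 8.86% lower. Lrp6 was higher in both precipitates. It measured 8.75, 9.55 and 9.52 with 4E-T and 9.20, 9.33 and 9.07 with IgG, against 8.05, 8.39, 8.35 and 8.36 in input. Every precipitate array lay above every input array. The difference from input was 1.03 ± 0.13 for 4E-T (2.04-fold, adjusted p = 3.24e-04) and 0.78 ± 0.14 for IgG (1.72-fold, adjusted p = 0.00238). That of 4E-T from IgG was 0.25 ± 0.15 (95% interval -0.08 to 0.58). A second probe set for Lrp6 gave 1.07 ± 0.13 and 1.02 ± 0.13 over input. Both calls held under all 18 alternatives.

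Lrp5, the other co-receptor, measured 6.48, 7.14 and 7.13 with 4E-T and 6.90, 6.60 and 6.74 with IgG, against 5.94, 6.59, 6.42 and 6.56 in input. Outside the lower set the 4E-T arrays were above all others. It was higher than in input by 0.59 ± 0.13 with 4E-T (adjusted p = 0.00577), while IgG over input was 0.21 ± 0.13 (adjusted p = 0.322). The call over input was lost with group as the sole term (adjusted p = 0.283). The difference of 4E-T from IgG was 0.37 ± 0.14 (adjusted p = 0.122).

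Lgr4, an R-spondin receptor, measured 4.35, 4.70 and 4.83 with 4E-T, against 3.69, 4.00 and 4.10 with IgG and 3.74, 4.15, 4.14 and 3.97 in input. The 4E-T arrays were above all arrays of both other groups. It was higher than with IgG by 0.82 ± 0.15 (adjusted p = 0.00625) and higher than in input by 0.66 ± 0.14 (adjusted p = 0.00495). All its IgG and input values lie below the mark for dim probe sets, as does its mean of 4.17, so no fold is given. Both calls were lost with group as the sole term (adjusted p = 0.190 over IgG and 0.121 over input). Lgr5 and Lgr6 were not called in any comparison, with differences from IgG of 0.16 ± 0.16 and -0.05 ± 0.19.

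Of the 8 secreted inhibitors, 1 was higher with 4E-T than with IgG and 0 lower, against 7.57% and 2.92% of all genes. Their median difference was -0.04. Sfrp1, a frizzled-related protein of cortical precursors that binds Wnt ligands, measured 9.52, 9.65 and 9.51 with 4E-T, against 9.09, 8.98 and 8.51 with IgG and 9.39, 9.81, 9.66 and 9.37 in input. Here the IgG arrays were the low ones, below all arrays of both other groups, and 4E-T overlapped input. Sfrp1 was higher than with IgG by 0.75 ± 0.19 (1.68-fold, adjusted p = 0.0263). IgG over input was -0.73 ± 0.17 (adjusted p = 0.0124, but 0.0502 without input 2 and 0.0919 with group as the sole term), and 4E-T over input was 0.02 ± 0.17 (95% interval -0.35 to 0.38). The call over IgG was lost in 8 of 18 alternatives, among them the fits without 4E-T 1, 4E-T 2, 4E-T 3, IgG 4 or input 1 (adjusted p from 0.0603 to 0.121).

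Dkk4, a Dickkopf antagonist of the Lrp co-receptors, was called higher with IgG than in input (0.48 ± 0.14, adjusted p = 0.0366). Its values of 3.58, 3.85 and 3.99 with IgG and 2.69, 3.46, 3.18 and 3.30 in input are all below the mark for dim probe sets. The call held in 4 of 17 alternatives, and of the fits without 1 array only in that without IgG 2 (adjusted p up to 0.117 in the others). For Dkk4 the difference of 4E-T from IgG was -0.30 ± 0.16 (adjusted p = 0.279). The probe sets of Sfrp2 disagreed against input. The brighter one gave -0.30 ± 0.14 for 4E-T and -0.07 ± 0.15 for IgG (adjusted p = 0.198 and 0.814). The dimmer one gave 0.47 ± 0.14 and 0.74 ± 0.15 (adjusted p = 0.0406 and 0.00550). Dkk1, Dkk2, Dkk3, Sfrp4 and Sfrp5 were not called in any comparison.

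Of the 6 transduction genes, Dvl3 was lower with 4E-T than with IgG and 0 were higher, against 2.92% and 7.57% of all genes. The median difference was -0.27. Dvl3, a dishevelled protein that relays the receptor signal, measured 7.94, 8.27 and 8.57 with 4E-T, against 9.18, 9.15 and 9.39 with IgG and 7.83, 8.70, 8.53 and 8.66 in input. The IgG arrays were above all others, and 4E-T overlapped input. Dvl3 was lower with 4E-T than with IgG (-0.76 ± 0.16, adjusted p = 0.00961) and higher with IgG than in input (0.65 ± 0.14, adjusted p = 0.00832). The difference of 4E-T from input was -0.12 ± 0.14 (95% interval -0.42 to 0.19). The call of 4E-T over IgG was lost without 4E-T 2 (adjusted p = 0.0800) and with group as the sole term (adjusted p = 0.107). That of IgG over input was lost with group as the sole term (adjusted p = 0.0925).

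Gsk3b, the kinase that marks beta-catenin for degradation, measured 10.09, 10.90 and 10.90 with 4E-T and 11.09, 11.08 and 11.28 with IgG, against 9.85, 10.16, 10.12 and 10.35 in input. The IgG arrays were the highest, and 4E-T lay between IgG and input outside the lower set. The difference from input was 0.56 ± 0.14 with 4E-T (1.48-fold, adjusted p = 0.0125) and 0.89 ± 0.14 with IgG (1.85-fold, adjusted p = 0.00127). That of 4E-T from IgG was -0.33 ± 0.15 (adjusted p = 0.226). The 4E-T call over input was lost without 4E-T 2 or 4E-T 3 (adjusted p up to 0.0768) and with group as the sole term (adjusted p = 0.314).

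Apc, the scaffold of the destruction complex, measured 7.16, 7.59 and 7.59 with 4E-T and 7.69, 7.68 and 7.99 with IgG, against 7.07, 6.95, 7.08 and 7.24 in input. It was higher with IgG than in input by 0.65 ± 0.15 (adjusted p = 0.0103), a call lost with group as the sole term (adjusted p = 0.0698) and with median centring (adjusted p = 0.114). With 4E-T the difference from input was 0.38 ± 0.14 (adjusted p = 0.0891), and that of 4E-T from IgG was -0.27 ± 0.16 (adjusted p = 0.368). In IgG over input, 3 of the 6 transduction genes were thus higher (Apc, Dvl3 and Gsk3b) and 0 lower, against 6.14% of all genes higher and 10.5% lower. Axin1, Dvl1 and Dvl2 were not called in any comparison, with differences from IgG of 0.11 ± 0.14, -0.28 ± 0.16 and 0.40 ± 0.21.

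**Figure D3:**
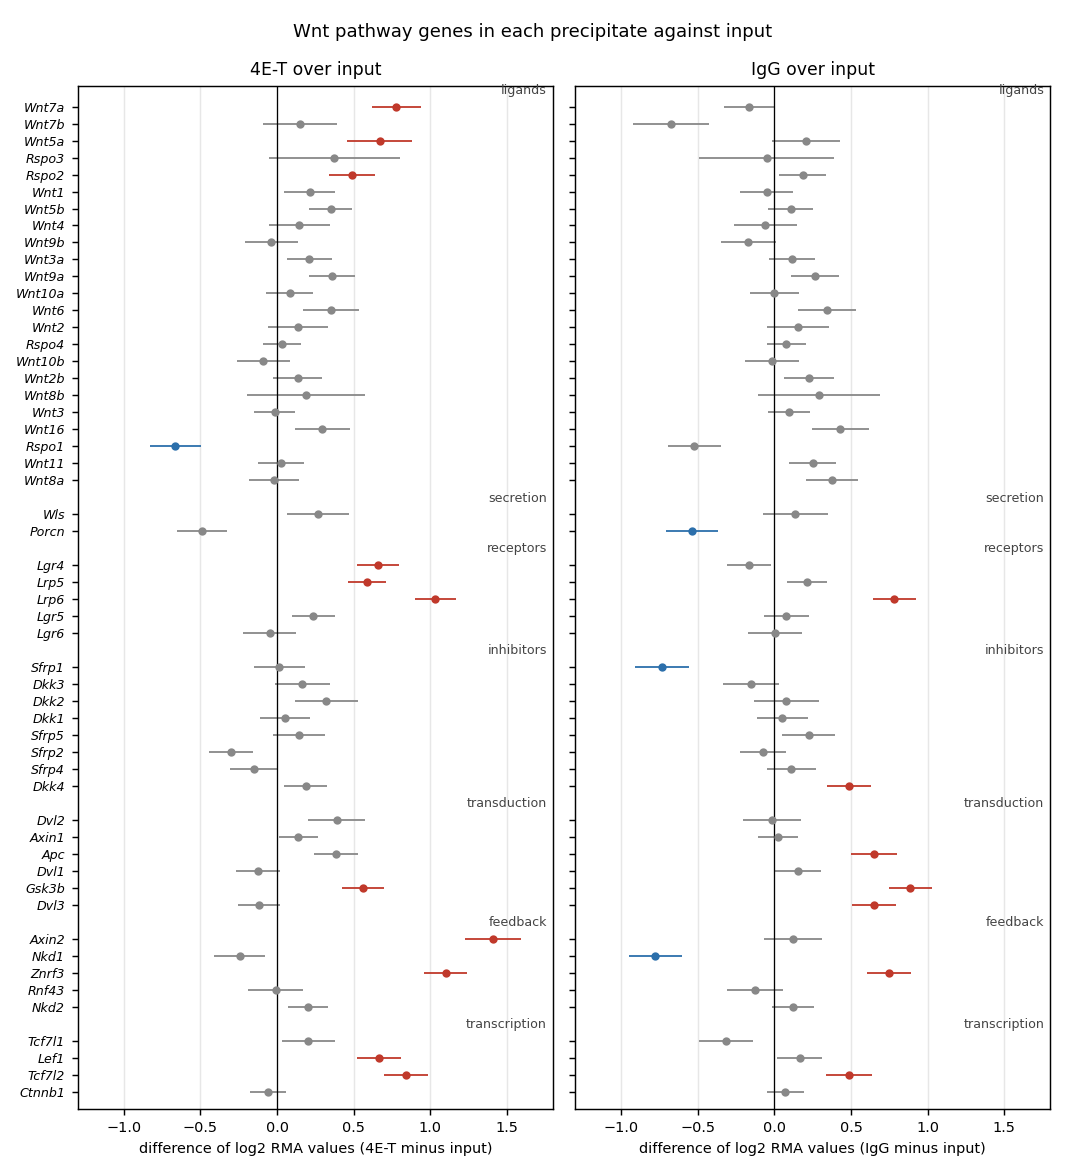
Difference of log2 RMA values for the 53 genes by class (y axis): 4E-T minus input (left, x axis) and IgG minus input (right, x axis), with standard errors as bars and called genes in red (higher) or blue (lower). Lrp6, Znrf3, Gsk3b and Tcf7l2 were called higher in both panels. In the left panel alone, Axin2, Wnt7a, Lgr4, Lrp5, Lef1, Rspo2 and Wnt5a were called higher and Rspo1 lower. In the right panel alone, Apc, Dvl3 and Dkk4 were called higher and Nkd1, Porcn and Sfrp1 lower.

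Of the 5 feedback genes, Axin2 was higher with 4E-T than with IgG and 0 were lower, against 7.57% and 2.92% of all genes. All 5 differences were above 0, with a median of 0.35, as were those of 11916 of all 22180 genes. Znrf3, a membrane ubiquitin ligase that removes frizzled receptors, was higher in both precipitates. It measured 7.29, 7.69 and 7.58 with 4E-T and 7.54, 7.14 and 7.12 with IgG, against 6.27, 6.58, 6.39 and 6.55 in input. Every precipitate array was above every input array. The difference from input was 1.10 ± 0.14 for 4E-T (2.14-fold, adjusted p = 2.85e-04) and 0.75 ± 0.14 for IgG (1.68-fold, adjusted p = 0.00397), and both calls held under all 18 alternatives. That of 4E-T from IgG was 0.35 ± 0.16 (adjusted p = 0.197).

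Nkd1, an inhibitor that binds dishevelled, was called lower with IgG than in input. It measured 5.46, 6.02 and 6.06 with 4E-T and 5.44, 5.78 and 5.60 with IgG, against 5.32, 6.47, 6.17 and 6.70 in input. Outside the lower set, input was above both precipitates. IgG over input was -0.78 ± 0.17 (adjusted p = 0.00911, but 0.378 with group as the sole term), while 4E-T gave -0.24 ± 0.17 against input and 0.53 ± 0.19 against IgG (adjusted p = 0.406 and 0.101). Nkd2 and the dim Rnf43 were not called in any comparison, with differences from IgG of 0.08 ± 0.15 and 0.12 ± 0.20.

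None of the 4 transcription genes was called in 4E-T over IgG, against 10.5% of all genes. An unadjusted p under 0.05 was found for 2 of them and for 5274 of all 22180 genes. The median difference of the 4 genes was 0.43. Ctnnb1, which encodes beta-catenin, measured 8.97, 8.82 and 8.92 with 4E-T, against 9.04, 9.02 and 8.92 with IgG and 9.06, 8.87, 8.87 and 9.01 in input. The arrays of all 3 groups overlapped. The differences were -0.13 ± 0.13 from IgG (95% interval -0.42 to 0.16) and -0.06 ± 0.12 from input (-0.32 to 0.20).

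Lef1 measured 8.44, 7.83 and 7.53 with 4E-T, against 7.20, 7.07 and 7.32 with IgG and 7.71, 7.25, 6.96 and 6.92 in input. The 4E-T arrays were above all IgG arrays, and 4E-T 3 was below input 1. It was higher than in input by 0.67 ± 0.14 with 4E-T (1.59-fold, adjusted p = 0.00563). The difference from IgG was 0.50 ± 0.16 (adjusted p = 0.0674). It was called in 2 of 18 alternatives, the filter on dim genes (adjusted p = 0.0350) and trended, robust eBayes in limma (adjusted p = 0.0470). The call over input was lost in the 3 fits of all arrays without the set term (adjusted p from 0.154 to 0.290).

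Tcf7l2 measured 7.80, 7.99 and 7.98 with 4E-T and 7.90, 7.58 and 7.40 with IgG, against 6.99, 7.30, 7.04 and 7.06 in input. Both precipitates were above all input arrays. The difference from input was 0.84 ± 0.15 for 4E-T (1.79-fold, adjusted p = 0.00173), called in all 18 alternatives. For IgG it was 0.49 ± 0.15 (adjusted p = 0.0442), called in 6 of 18 and, of the fits without 1 array, only in that without IgG 4 (adjusted p up to 0.139 in the others).

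Tcf7l1, which mostly represses targets when beta-catenin is absent, measured 8.05, 8.49 and 8.53 with 4E-T, against 8.23, 7.60 and 8.19 with IgG and 7.77, 8.46, 8.45 and 8.11 in input. The groups overlapped, and it was not called in any comparison. Its difference from IgG was 0.52 ± 0.19 (adjusted p = 0.118).

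Over all classes, 4E-T over input called 12 of the 53 genes (22.6%), against 19.3% of all genes, with 11 higher and 1 lower. IgG over input called 10 (18.9%), against 16.6% of all genes, with 7 higher (Apc, Dkk4, Dvl3, Gsk3b, Lrp6, Tcf7l2 and Znrf3) and 3 lower (Nkd1, Porcn and Sfrp1). These comparisons share the input arrays. In the 8 arrays outside the lower set 4 members were called over IgG, against 8.62% of all genes. Against input 9 were called there for 4E-T and 7 for IgG, with 16.1% and 15.6% of all genes called. With group as the sole term these counts against input were 5 and 3, with 6.14% and 5.44% of all genes called.

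**Figure D4:**
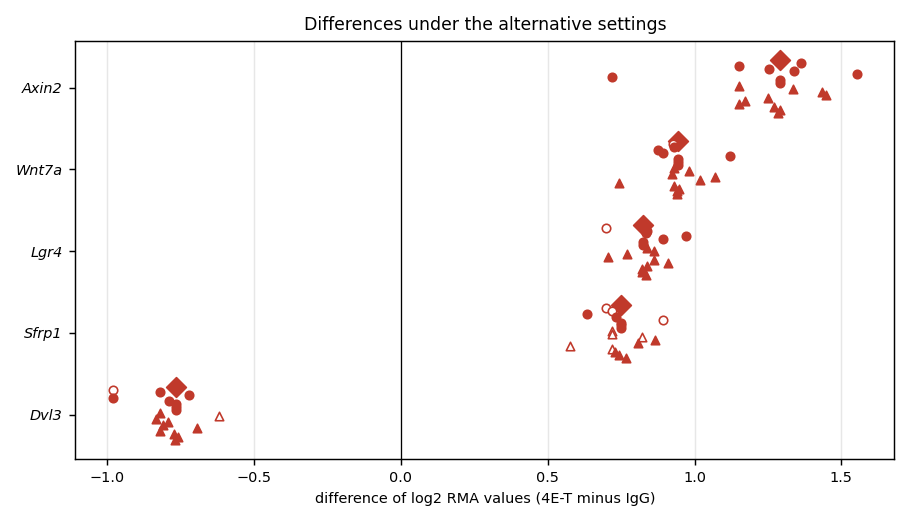
Difference of log2 RMA values, 4E-T minus IgG (x axis), of the 5 members called in that comparison (y axis); diamonds are the values reported, circles other settings and triangles the fits without 1 array, filled where the adjusted p is under 0.05. All differences kept their sign, and Axin2 alone was called in all 18 alternatives. The second probe set of Axin2, which was not called (0.15), is not shown.

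Other genes of the pathway, outside the rule, were counted from a list of 64. Of the 10 frizzled receptors 7 were higher with 4E-T than with IgG and 1 lower, against 7.57% and 2.92% of all genes, with a median difference of 0.96. Fzd8 was higher by 1.33 ± 0.31 and Fzd3 was lower (-0.63 ± 0.13). The other lists of components had 9.09% to 12.5% of their genes called, near the 10.5% of all genes. Of 10 extracellular regulators 1 was called, Shisa2, which retains frizzled in the endoplasmic reticulum (1.24 ± 0.27). Of 11 alternative receptors and planar polarity genes Ryk was higher (0.49 ± 0.14). Of 16 cytoplasmic components Amer1 and the ubiquitin ligase subunit gene Fbxw11 were higher (0.81 ± 0.19 and 0.50 ± 0.15), and of 10 nuclear partners of beta-catenin Ctnnbip1, which blocks its binding to Tcf factors (0.64 ± 0.17). Among these lists, Fzd3 was the gene called lower.

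Of 6 genes outside the rule that are known as targets of the pathway, 4 were higher with 4E-T than with IgG and 0 lower, against 7.57% and 2.92% of all genes. This list was chosen with earlier results of these data known and leaves out targets that are members, such as Axin2. Among the 5 feedback genes, which are members, 1 was called over IgG. Ccnd1, a cyclin gene, was higher by 1.52 ± 0.39, Emx2, a patterning factor, by 0.90 ± 0.18, Myc by 0.82 ± 0.19 and the proneural factor Neurog1 by 0.73 ± 0.16. Against input 4 of the 6 were higher with 4E-T and 0 lower, against 10.4% and 8.86% of all genes. These were Emx2 (0.82 ± 0.16), Mycn (0.80 ± 0.15), Myc (0.80 ± 0.16) and Neurog1 (0.65 ± 0.14). Ccnd1 and Sp5 were not called there (1.02 ± 0.35 and 0.20 ± 0.20). None of the 6 was called in IgG over input, against 16.6% of all genes. There an unadjusted p under 0.05 was found for 1 of the 6 and for 6235 of all 22180 genes.

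Markers of the cells in the tissue were set beside these values. All 7 markers of radial precursors were above the mark for dim probe sets. Of these, 4 were higher with 4E-T than with IgG and 0 lower, against 7.57% and 2.92% of all genes. The 4 were Hes5 (1.85 ± 0.17), Sox2 (1.06 ± 0.17), Slc1a3 (0.90 ± 0.25) and Nes (0.75 ± 0.13). Pax6, Vim and Fabp7 were not called over IgG (0.18 ± 0.16, 0.15 ± 0.16 and -0.16 ± 0.14). Vim was lower than in input with both 4E-T and IgG (-0.76 ± 0.14 and -0.91 ± 0.15). As log2 of summed intensities the 7 markers reached 12.39 to 12.67 with 4E-T, against 12.19 to 12.31 with IgG and 12.10 to 12.57 in input. For 6 markers of intermediate progenitors and neurons the sum was 12.18 to 12.60 with 4E-T, against 12.49 to 12.81 with IgG and 12.09 to 12.94 in input, and their median difference between 4E-T and IgG was 0.16. Of these 6, 4 had differences above 0, none of them called, and Dcx was lower (-1.11 ± 0.21). The 7 genes of cortical hem and choroid plexus, which include the members Rspo1, Wnt2b and Wnt3a and of which 3 were above the mark for dim probe sets, had no call over IgG (median -0.07) and summed to 7.02 to 7.52 with 4E-T, 7.38 to 7.59 with IgG and 7.62 to 7.71 in input. The 7 meningeal genes, 2 of them above the mark, summed to 6.22 to 7.69 with 4E-T, 7.19 to 7.75 with IgG and 5.94 to 7.67 in input, with a median difference from IgG of 0.08. Of these, Foxc1 and Foxd1 were higher over IgG (1.42 ± 0.15 and 0.68 ± 0.18), and the 5 uncalled genes ranged from -0.75 (Col1a2) to 0.45 (Dcn). The 6 endothelial genes, 4 of them above it, summed to 7.18 to 8.08 with 4E-T, 7.19 to 7.48 with IgG and 7.14 to 7.99 in input, with a median difference from IgG of 0.44 and Kdr called higher (1.48 ± 0.22). The 3 erythroid genes measured of 5 summed to 10.50 to 11.01 with 4E-T, 10.15 to 10.67 with IgG and 10.83 to 11.41 in input, with a median difference from IgG of 0.38 and Tspan33 called higher (0.98 ± 0.20). The part of these cells in the differences of the Wnt genes was not tested.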

How the data were processed

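RNA from CD1 embryonic cortices was precipitated with the Magna RIP kit, amplified with the NuGEN Pico protocol and hybridised to the arrays, per the labels' protocols. Per the submitters' processing notes, the authors used RMA and Affymetrix Expression Console, and the deposited table holds log2 values. Versions and the probe sets' genome build are not given in the sources used here. Arrays have no read depth, and precision is limited by their number.

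Of 41345 probe sets, 23521 had 1 gene symbol, 1814 several and 16010 no annotation entry. The 22180 genes were fitted together with limma 3.58.1 in R 4.3.3 (lmFit, eBayes), with group and the set term, and p-values were adjusted over all genes (Benjamini-Hochberg). Figures used matplotlib 3.10.9 in Python 3.11.15. The fit was tested on simulated data with 50 genes changed at each size. In 4E-T over IgG it called 4% of changes of 0.5 and 80% of changes of 1.0 on the log2 scale. A member left uncalled can thus still have a change of the smaller size. The sums of marker genes are log2 of the sum of intensities taken out of log2. Members, lists, the set term and the alternatives were chosen with earlier results of these data known. By the rule for named genes, every array value was given for members called in 4E-T over IgG and a fixed list (Axin2, Ctnnb1, Apc, Gsk3b, Lrp6, Lef1, Tcf7l1, Tcf7l2, Wnt7a, Wnt7b, Sfrp1 and Wls). Members called in another comparison or at the end of their class were named with their difference. The array values of Lrp5, Nkd1, Porcn, Rspo1, Rspo2, Rspo3, Wnt5a, Wnt8b and Znrf3, and those of Dkk4 with IgG and in input, were added after they were seen.

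Replicate numbers were checked as pairs. Deviations from group means of equal-numbered 4E-T and input arrays correlated at 0.623, 0.24 and 0.277, which met the criterion of 0.1, but at 0.0442 and 0.00845 within the 8 arrays outside the lower set. IgG and input did not meet it (-0.023, 0.0798 and 0.318). Within the 8 arrays these correlations were 0.137, 0.0909 and 0.247, of which that of number 3 was below 0.1. 4E-T and IgG share the numbers 2 and 3 (-0.0672 and 0.0224, and 0.0153 and 0.0314 within the 8 arrays).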

Additional observations from a re-analysis of the deposited data

Results flagged for a closer look

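Among the 53 members, 6 had 1 input array far from the other 3, by the gap to the nearest array over the range of the 4 (Dixon's ratio, against its 95% critical value). Chance marks about 1 in 20 groups, and 5 of the 6 concern input 1, an array of the lower set. The gap ratio was 0.97 for Dkk1, where input 1 was at 2.80 and the others at 4.34 to 4.39. It was 0.907 for Rspo4 (3.70, against 4.08 to 4.12), 0.878 for Wnt5b (4.82, against 5.26 to 5.33) and 0.881 for Lrp6 (8.05, against 8.35 to 8.39). Rspo1 was the case in which input 1 was the high array (0.831), at 6.92 against 6.32 to 6.42. Rspo2 stood apart in input 4 (0.917), at 5.01 against 4.65 to 4.68. Groups of 3 arrays were not examined in this way.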

How the results depend on the processing

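Of the 27 called differences of members, 8 were called under every alternative that tested them, and no called difference changed sign in any of the 18 alternatives. With group alone, 1 member was called in 4E-T over IgG, and against input 5 were called for 4E-T and 3 for IgG. That setting moved the median of all genes to -0.19 for 4E-T over IgG and 0.20 for IgG over input. Median centring with group alone gave 7 members for 4E-T and 6 for IgG against input. In the fits without 1 array the count of 4E-T over IgG ran from 3 (without 4E-T 2) to 5, and against input the counts ran from 9 to 13 for 4E-T and from 7 to 10 for IgG. With the replicate number as a block they were 7, 13 and 11. The block added Rspo3 and Wnt7b in 4E-T over IgG (0.84 and 1.01), Rspo3 in 4E-T over input and Wnt7b in IgG over input, and changed no other call. Over all genes the calls of 4E-T over IgG numbered 2326, against 299 with group alone, 1510 with median centring and 2890 of 12284 with the filter on dim genes. The second Axin2 probe set, fitted after the data were seen, lost the call over IgG (0.15). The cause of these changes was not tested.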

Other observations

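Rspo3 and Wnt8b, chosen for the widest standard errors among the members, varied widely between the IgG arrays and between the input arrays. Rspo3, an R-spondin of the cortical hem, measured 7.95, 8.01 and 7.80 with 4E-T, against 7.30, 6.67 and 8.50 with IgG and 7.56, 7.18, 6.86 and 8.58 in input. IgG 4 and input 4, which share a number, were the highest arrays of all, and IgG 3 and input 3 the lowest of their groups. Wnt8b, a ligand of the medial cortical wall, measured 5.52, 4.60 and 4.55 with 4E-T, against 5.83, 4.08 and 4.01 with IgG and 5.47, 4.93, 4.09 and 3.96 in input. Its standard error in 4E-T over IgG was 0.43, and the standard error of Rspo3 was 0.48. The next widest, that of Wnt7b, was 0.27.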
